A study of Bos taurus with 6 samples.

Results

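The genes described here are the cyclins, the cyclin-dependent kinases (CDKs) they activate, the inhibitors of these kinases and the E2F factors with their partners, in cultured bovine granulosa cells (GC) plated at normal or high density. They were taken from a list of 49 gene symbols, each compared with the symbol column of the deposited table, which carries 20074 distinct symbols. A row was found for 46 of the 49 symbols, with 1 transcript cluster each, the unit of the array for a gene. No row carries the symbols RBL1, E2F7 or LIN9, so these genes were not analysed here.

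RNA came from 6 cultures of primary GC, 3 at normal and 3 at high plating density, with 1 Bovine Gene 1.0 ST Array per culture. Both groups were kept serum-free in alpha-MEM for 9 days with FSH, IGF-1 and androstenedione, so that the initial plating density was the only labelled difference. The cells were cryopreserved pools from small to medium sized follicles of abattoir ovaries, from many cows of undefined cycle stage. The labels do not say whether a culture of one density shares its pool with a culture of the other density, and p-values measure the spread between these cultures only. The deposited values are log2 signals made with the RMA procedure, and the 95th percentile of the 82 reporter control rows, 4.62, was used here as the background level. Each difference is given as a log2 fold change with normal density as the base, so that a negative value means a lower signal at high density, and limma was fitted over all 26773 transcript clusters. A gene is termed called when its fold change (FC) exceeds 1.5 in size, which is 0.58 on the log2 scale, and its p-value and false discovery rate (FDR, here the p-value adjusted by the Benjamini-Hochberg method) are below 0.05.

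The cell cycle is driven by CDKs, which are active only when bound to a cyclin. D cyclins with CDK4 or CDK6 begin the phosphorylation of the retinoblastoma protein in G1 and E cyclins with CDK2 complete it, which frees the E2F factors to switch on the genes of S phase. Cyclin A takes over in S phase, and B cyclins with CDK1 drive mitosis. INK4 and CIP/KIP proteins hold these kinases back. In the ovary, GC of growing follicles divide under FSH with cyclin D2 as a main target, and they leave the cell cycle when the LH surge turns them into luteal cells.

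The labelled cell type was checked with marker genes. For all 10 granulosa markers at least 1 group mean lay above the background level, although 6 of them, including CYP19A1, FSHR and INHA, fell at high density. All 7 leukocyte and all 5 red blood cell markers were at or below background in both groups. So were 6 of the 7 endothelial markers (VWF was above it). Of the 5 theca markers only CYP17A1 was below it, while INSL3, DCN, PTCH1 and NR2F2 were above it in both groups. PTCH1 rose by 0.31 (limma, FDR 0.0284), and DCN and NR2F2 changed by 0.17 and −0.07 without passing the FDR. INSL3, also a theca marker, rose by 1.82, and ACTA2 and TAGLN of the smooth muscle list rose by 1.15 and 1.08, while MYH11 fell by 0.67 with both means below background. Of the 5 surface epithelium markers only UPK1B was called, with a rise of 0.62. MSLN and CDH1 changed by 0.13 and 0.16 without passing the FDR, and EPCAM and KRT19 were below background in both groups. The summed signal of the theca list was between 10.89 and 10.99 on the log2 scale at normal and between 11.28 and 11.37 at high density, and that of the smooth muscle list between 8.45 and 8.52 and between 9.29 and 9.46. The sum of the surface epithelium list was between 9.63 and 9.70 and between 10.15 and 10.34. UPK1B, with means of 9.46 and 10.08, made up most of it. These sums are log2 of the added linear signals. The sum of the granulosa list was lower at high density, between 11.33 and 11.45, than at normal density, between 11.98 and 12.15. DCN, with means of 10.68 and 10.86, made up most of the sum of the theca list. This concerns the level of that sum and not its rise, as DCN rose by 0.17 and INSL3 by 1.82. The part of these cell types in the changes of cell cycle genes was not tested.

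At high density the kinase CDK1 and several cyclins and phosphatases of S phase, G2 and mitosis fell, and the change of largest size among the 46 genes was the rise of the inhibitor CDKN1C. In either direction 14 genes were called, with 7.49% of all transcript clusters called. Of the 46 genes measured, 11 were called lower at high density, 23.9%, against 3.51% of all transcript clusters. These were CDK1, CCNA2, CDKN3, CCNB1, CCND1, CCNF, MYBL2, CDC25C, CDC25B, SKP2 and E2F1. Called higher were 3 genes, 6.52%, against 3.97% of all transcript clusters, and all of them were CDK inhibitors (CDKN1C, CDKN2D and CDKN2B). In 51.2% of all transcript clusters both group means were at or below the background level. A filter at this level kept 13077 transcript clusters, of which 5.99% were called lower and 6.97% higher. It kept 44 of the 46 genes, with the same 11 falls and 3 rises, so the rises were no excess there. Another 9 genes were lower with an FDR below 0.05 but an FC under the threshold, so that 20 genes, 43.5%, passed the FDR in this direction, against 10.4% of all transcript clusters. In the other direction the same 3 inhibitors passed it, 6.52%, against 8.64% of all transcript clusters. The remaining 23 genes did not pass the FDR. The median log2 fold change of the 46 genes was −0.28, with 0.02 over all transcript clusters. From these signals fewer dividing cells and less of these RNAs per cell cannot be told apart.

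**Figure D1:**
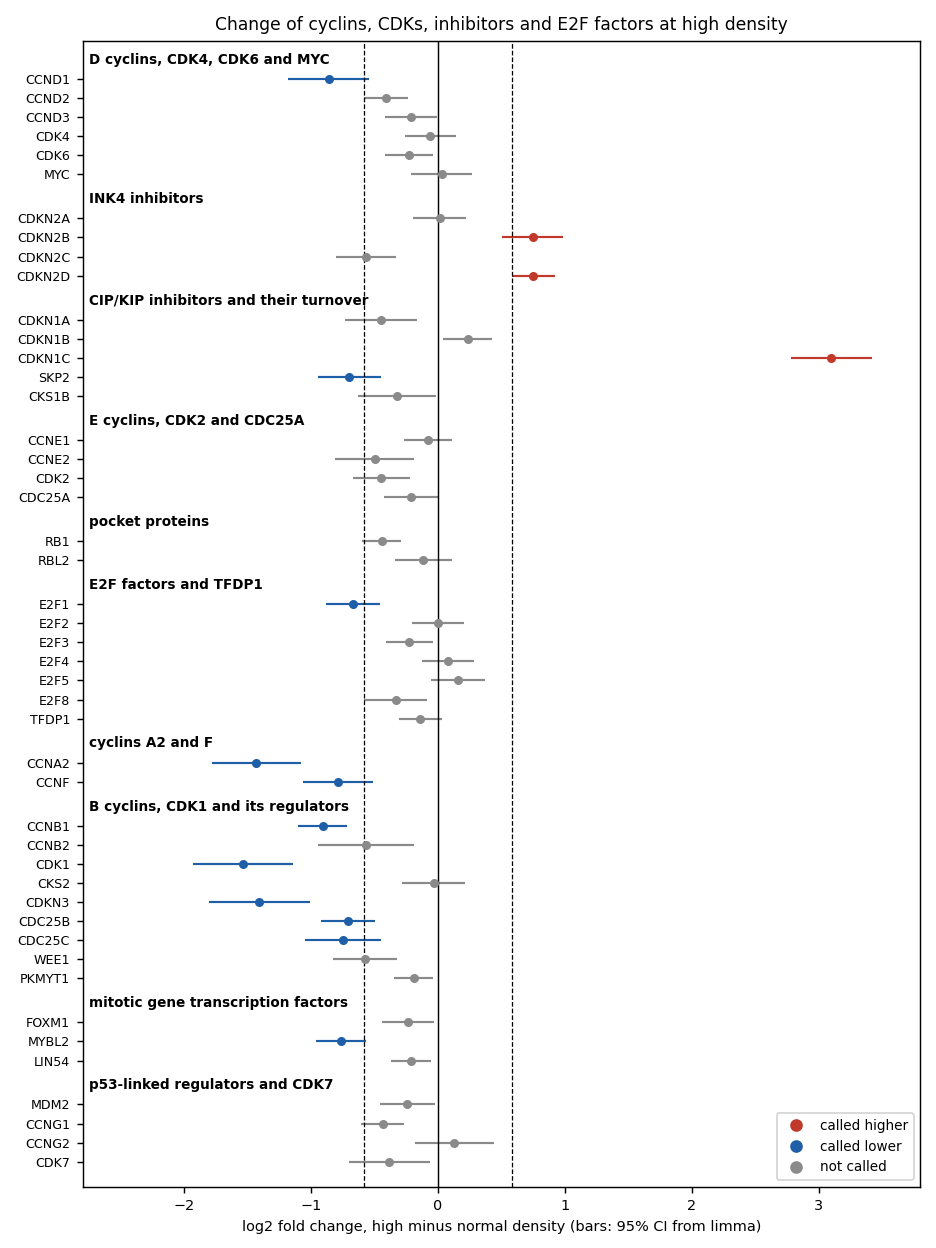
Log2 fold change, high minus normal density (x axis), of each of the 46 measured genes (y axis, in groups by role), with bars for the 95% confidence interval from limma and dashed lines at the FC threshold of 1.5. Blue points are the 11 genes called lower, red points the 3 called higher and grey points those not called, and 7 of the 11 blue points belong to cyclins A2 and F and to the B cyclins, CDK1 and its regulators.

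In G1, among D cyclins, their kinases and MYC, CCND1 was the only one of 6 genes called. The log2 signals of CCND1 (cyclin D1, transcript cluster 12831125) were 5.27, 5.33 and 5.50 at normal density and 4.56, 4.22 and 4.73 at high density. All high density cultures lay below all normal density cultures, with means of 5.37 ± 0.12 and 4.504 ± 0.26 (SD, n = 3) and a log2 fold change of −0.86 (SE 0.13, FDR 0.00448). The high density mean lay below the background level, and the size of this fall is uncertain.

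CCND2 (cyclin D2, 12868434), the D cyclin induced by FSH in GC, had signals of 9.41, 9.56 and 9.39 at normal and of 9.05, 9.07 and 9.00 at high density. The cultures of the densities did not overlap and passed the FDR (adjusted p = 0.00852), but the log2 fold change of −0.41 (SE 0.07) corresponds to an FC of 1.33 in size. Within each culture, the log2 ratio of CCND1 to CCND3 was between −2.51 and −2.23 at normal and between −3.14 and −2.89 at high density, a difference of −0.65 (95% confidence interval −0.94 to −0.35). The exact permutation test for such a ratio gave p = 0.1, which is the smallest p that 3 cultures against 3 allow, and no pair of the 27 compared was below an adjusted p of 0.135. For 20 of the 27 pairs the ratios did not overlap between the densities, so a lack of overlap was the usual outcome. For the ratio of CCND1 to CCND2 the difference was −0.45, with an interval of −0.99 to 0.09 that includes 0.

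The kinases of the D cyclins did not pass the FDR. CDK4 (12858932) was measured at 8.76, 8.91 and 8.92 at normal and at 8.85, 8.68 and 8.87 at high density, so its groups overlapped, with a log2 fold change of −0.06 (95% confidence interval −0.26 to 0.14). For CDK6 (12853903) the signals were 6.52, 6.55 and 6.68 and 6.26, 6.43 and 6.38, without overlap and with a log2 fold change of −0.23 (adjusted p = 0.0913). CCND3 had a log2 fold change of −0.21 (adjusted p = 0.139). MYC (12724848), the growth factor induced transcription factor that promotes entry into the cycle, was measured at 5.93, 6.14 and 5.90 and at 6.07, 5.86 and 6.13. Its groups overlapped, and its log2 fold change of 0.03 changed sign with the scaling of the arrays.

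The INK4 proteins bind CDK4 and CDK6 and keep D cyclins away from them. Of the 4 members of this family 2 were called higher. Over all transcript clusters 3.97% were called higher, and 6.97% with the filter at the background level. Another member passed the FDR in the other direction without reaching the FC threshold, and CDKN2A was below the background level in all cultures. CDKN2D (12884699) had signals of 4.82, 4.90 and 4.97 at normal and of 5.67, 5.59 and 5.67 at high density. Its groups stood clearly apart, with a log2 fold change of 0.75 (SE 0.07, FDR 5.48e-04). CDKN2B (12890780), a known target of TGF-beta signalling, had signals of 4.59, 4.42 and 4.37 and of 5.15, 5.09 and 5.38. Its log2 fold change was 0.75 as well (SE 0.10, FDR 0.00251), but the normal density signals lay below the background level.

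CDKN2C (12843388) had signals of 6.72, 6.87 and 6.94 at normal and of 6.15, 6.44 and 6.22 at high density. These do not overlap, and the log2 fold change of −0.57 (SE 0.10, FDR 0.00762) fell just short of the FC threshold. It was past this threshold when each array was shifted to the same median, with −0.61, with array weights, with −0.62, and without normal density replicate 1 or high density replicate 2, with −0.63 and −0.65. The log2 ratio of CDKN2C to CDKN2D was between 1.90 and 1.97 in the normal density cultures and between 0.48 and 0.85 in the high density cultures. This is a difference of −1.32 (95% confidence interval −1.64 to −1.002) within the same family. CDKN2A had signals between 3.77 and 4.02 at normal and between 3.89 and 4.02 at high density.

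CIP/KIP proteins bind to cyclin complexes of several phases. The 3 family members differed in direction. CDKN1C (12830373), which encodes p57 and is an imprinted gene in mammals, had signals of 5.03, 4.82 and 4.78 at normal and of 8.06, 8.16 and 7.69 at high density. Every normal density culture was above the background level, and the lowest high density culture exceeded the highest normal density culture by far. The means of 4.87 ± 0.14 and 7.97 ± 0.25 (SD, n = 3) gave a log2 fold change of 3.10 (SE 0.14, FDR 2.08e-05), an FC of 8.57. With each culture left out in turn the log2 fold change was between 3.00 and 3.24. Among all 26773 transcript clusters this was the rise of rank 15.

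CDKN1A (12801900), the p53 target that encodes p21, had signals of 9.64, 9.57 and 9.66 at normal and of 9.34, 8.90 and 9.29 at high density. It was lower in all high density cultures and passed the FDR (adjusted p = 0.0397), but its log2 fold change of −0.45 (SE 0.12) was under the FC threshold. High density replicate 2 lay lowest, apart from the other two. CDKN1A did not pass the FDR by the methods' t-test (adjusted p = 0.135), after a second quantile normalization (0.0549), or without any one of the normal density cultures or high density replicate 3 (limma, adjusted p between 0.0621 and 0.124). CDKN1B (12865627), which encodes p27, had signals of 6.98, 7.09 and 7.15 and of 7.24, 7.42 and 7.26. Its groups did not overlap either, with a log2 fold change of 0.23 (95% confidence interval 0.04 to 0.43) that did not pass the FDR (adjusted p = 0.1001).

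The change of CDKN1C differed from that of its relatives within the same cultures. The log2 ratio of CDKN1B to CDKN1C was between 1.95 and 2.38 at normal density and between −0.82 and −0.44 at high density, a difference of −2.87 (95% confidence interval −3.35 to −2.39). For CDKN1A to CDKN1C the difference was −3.55 (−4.28 to −2.82), and for CDKN1A to CDKN1B it was −0.68 (−1.25 to −0.12). None of these ratios overlapped between the densities (exact permutation test, p = 0.1 each, the smallest p possible).

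SKP2 and CKS1B form the unit of a ubiquitin ligase that marks CDKN1B for destruction. SKP2 (12787593) had signals of 5.86, 6.24 and 6.11 at normal and of 5.44, 5.35 and 5.32 at high density. All high density cultures were lower, and the gene was called at −0.70 on the log2 scale (SE 0.11, FDR 0.00391). CKS1B was measured at 7.28, 7.42 and 7.54 and at 6.94, 7.36 and 6.96, so that high density replicate 2 lay within the range of normal density. Its log2 fold change was −0.33 (adjusted p = 0.136).

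**Figure D2:**
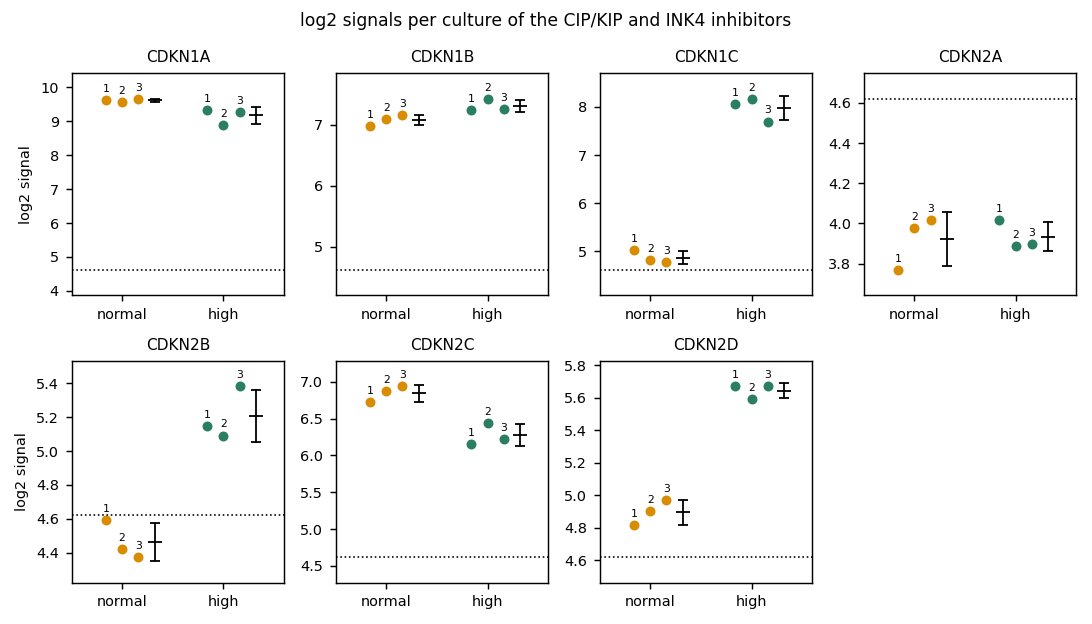
Log2 signals (y axis, each panel with its own scale) of the CIP/KIP and INK4 inhibitors in the 3 normal and 3 high density cultures (points, numbered by replicate), with the mean and SD in black and the background level of 4.62 as a dotted line. CDKN1C, CDKN2B and CDKN2D are higher in every high density culture, CDKN1A and CDKN2C lower, and CDKN2A stays under the background level.

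At the transition from G1 to S phase none of the E cyclins, CDK2 and CDC25A was called. CDK2 (12866416), the kinase of the E and A cyclins, had signals of 6.15, 6.14 and 6.20 at normal and of 5.59, 5.91 and 5.65 at high density. Its groups were apart, and the log2 fold change of −0.45 (SE 0.10, FDR 0.0168) passed the FDR only. CDK2 did not pass it by the methods' t-test (adjusted p = 0.0675) or with any single culture but high density replicate 2 left out (limma, adjusted p between 0.0527 and 0.0689). CCNE2 (12725792) had signals of 5.83, 6.01 and 6.27 and of 5.35, 5.67 and 5.59. With a log2 fold change of −0.50 (adjusted p = 0.0374) it also passed the FDR but not the FC threshold. Without normal density replicate 1 CCNE2 was called, at −0.60, while it did not pass the FDR by the methods' t-test (adjusted p = 0.138) or without normal density replicate 2 or 3 or high density replicate 1 or 3 (limma, adjusted p between 0.0830 and 0.108).

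CCNE1 (12752922), the other E cyclin, was measured at 6.47, 6.53 and 6.61 at normal and at 6.52, 6.52 and 6.34 at high density. The groups overlapped, and the log2 fold change was −0.08 (95% confidence interval −0.27 to 0.11). The log2 ratio of CCNE1 to CCNE2 was higher in each high density culture, by 0.42 on average (95% confidence interval 0.0049 to 0.84, exact permutation test, p = 0.1, the smallest p possible). CDC25A, the phosphatase that activates CDK2, had a log2 fold change of −0.21 (adjusted p = 0.160).

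The pocket proteins bind and silence E2F factors. RB1 (12710196), the retinoblastoma gene, had signals of 9.36, 9.29 and 9.37 at normal and of 8.91, 8.85 and 8.93 at high density. These values were close together within each density, and the log2 fold change of −0.45 (SE 0.07, FDR 0.00365) passed the FDR but not the FC threshold. RBL2 had a log2 fold change of −0.12 (adjusted p = 0.448), with high density replicate 2 at 7.195, above all normal density cultures. The change of RB1 differed from that of RBL2 by −0.33, with a 95% confidence interval of −0.68 to 0.02.

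Among 7 measured E2F factors and their dimer partner, only E2F1 was called. E2F1 (12720549), an activator of S phase genes and itself an E2F target, had signals of 5.78, 6.05 and 5.82 at normal and of 5.20, 5.17 and 5.27 at high density. All high density cultures lay below all normal density cultures, with a log2 fold change of −0.67 (SE 0.09, FDR 0.0022). The other activators did not pass the FDR, E2F2 with a log2 fold change of −0.00051 and E2F3 with −0.23 (adjusted p = 0.0928).

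Within the cultures, the log2 ratio of E2F1 to E2F2 differed between the densities by −0.67 (95% confidence interval −0.94 to −0.40), and that of E2F1 to E2F3 differed by −0.45 (−0.59 to −0.30). Neither ratio overlapped between the densities (exact permutation test, p = 0.1 each, the smallest p possible). E2F4 and E2F5, which act mainly as repressors with pocket proteins in resting cells, had log2 fold changes of 0.08 (95% confidence interval −0.13 to 0.29) and 0.16 (−0.06 to 0.37). E2F8, an atypical repressor that is made in S phase, had a log2 fold change of −0.33 (adjusted p = 0.0671) and TFDP1, the dimer partner, of −0.14 (adjusted p = 0.231).

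For S phase and G2, both cyclins measured fell. CCNA2 (12869943), cyclin A2, had signals of 7.07, 7.23 and 7.51 at normal and of 5.62, 6.07 and 5.82 at high density. The gap between the groups was larger than the range within either, with means of 7.27 ± 0.23 and 5.84 ± 0.23 (SD, n = 3). The log2 fold change was −1.43 (SE 0.15, FDR 7.53e-04), an FC of 2.70 in size, and all cultures were above the background level. CCNF (12811770), cyclin F, the substrate receptor of a ubiquitin ligase, was measured at 5.21, 5.55 and 5.30 and at 4.67, 4.38 and 4.62. It was lower in every high density culture, with a log2 fold change of −0.79 (SE 0.12, FDR 0.00358) and a high density mean below the background level.

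The largest group concerns entry into mitosis, and 5 of its 9 genes were called lower, 55.6%, against 3.51% of all transcript clusters, and none higher. CDK1 (12825838), the mitotic kinase, had signals of 5.86, 5.81 and 6.11 at normal and of 4.09, 4.74 and 4.34 at high density. High density replicate 2 was the highest of its group and still lower than all normal density cultures. The log2 fold change of −1.54 (SE 0.17, FDR 8.89e-04) was the largest fall among the 46 genes, an FC of 2.91 in size, and its high density mean of 4.39 ± 0.33 (SD, n = 3) lay below the background level. The log2 ratio of CDK1 to CDK2 was between −0.33 and −0.09 in normal density cultures and between −1.503 and −1.17 in high density cultures. Their changes thus differed by −1.09 (95% confidence interval −1.43 to −0.75, exact permutation test, p = 0.1, the smallest p possible).

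CDKN3 (12691926), a phosphatase that acts on CDK1 and CDK2, had signals of 6.46, 6.60 and 6.83 at normal and of 4.85, 5.37 and 5.44 at high density. Both groups were above the background level and did not overlap, with a log2 fold change of −1.41 (SE 0.17, FDR 0.00139). Although its name places it among the CDK inhibitors, it fell while CDKN1C, CDKN2B and CDKN2D rose. The inhibitors CDKN2C and CDKN1A were lower at high density too, by −0.57 and −0.45, under the FC threshold.

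CCNB1 (12787030), cyclin B1, the main activator of CDK1, had signals of 6.18, 6.01 and 6.22 at normal and of 5.23, 5.16 and 5.29 at high density. The groups were tight and apart, with a log2 fold change of −0.91 (SE 0.08, FDR 4.08e-04). Another row, LOC512293, described by the study as cyclin B1-like, had signals of 5.10, 5.58 and 5.68 and of 3.12, 3.81 and 3.20, a log2 fold change of −2.08 (SE 0.22, FDR 7.71e-04). Whether both rows share transcripts was not tested, and the high density signals of LOC512293 were below the background level. CCNB2 (12693465), cyclin B2, was measured at 4.90, 5.31 and 5.22 and at 4.56, 4.31 and 4.85, with a log2 fold change of −0.57 (SE 0.16, FDR 0.0472). The high density mean of CCNB2, 4.57, lay below the background level. Its groups were separated by a small gap only, and the FC was just under the threshold, which it exceeded at −0.61 after a shift of each array to the same median, at −0.69 without normal density replicate 1 and at −0.71 without high density replicate 3. Without replicate 2 or 3 of normal density, or without replicate 1 or 2 of high density, CCNB2 did not pass the FDR (limma, adjusted p between 0.0817 and 0.148), nor did it by the methods' t-test (0.169), with array weights (0.0665) or with the replicate number as a block (0.0568).

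The activity of CDK1 is set by the kinases WEE1 and PKMYT1, which block it, and by the CDC25 phosphatases, which release it. CDC25B (12718493) had signals of 5.55, 5.597 and 5.67 at normal and of 4.77, 4.86 and 5.06 in the high density cultures, with −0.71 as log2 fold change (SE 0.09, FDR 0.00195). CDC25C (12884149) had signals of 4.75, 4.81 and 5.12 and of 4.05, 4.34 and 4.05, a log2 fold change of −0.75 (SE 0.13, FDR 0.00639). Neither gene overlapped between densities, and the high density signals of CDC25C were below the background level. The fall of CDC25C was not called by the methods' t-test (adjusted p = 0.0548).

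Against CDC25A, the log2 ratios of the other two phosphatases were lower in the high density cultures. The changes of CDC25A and CDC25B differed by 0.50 (95% confidence interval 0.24 to 0.76) and those of CDC25A and CDC25C by 0.54 (0.27 to 0.81), both without overlap of the ratios (exact permutation test, p = 0.1 each, the smallest p possible). WEE1 was also lower in each high density culture, with signals of 7.52, 7.59 and 7.78 at normal and of 6.87, 7.17 and 7.11 at high density. Its log2 fold change of −0.58 (SE 0.11, FDR 0.00988) passed the FDR and was just short of the FC threshold. WEE1 was called after a shift of each array to one median, at −0.62, and in 4 fits that left out normal density replicate 1 or 2 or high density replicate 2 or 3, at −0.60 to −0.64, and it did not pass the FDR by the methods' t-test (adjusted p = 0.0598). PKMYT1 was at or below the background level in all cultures, and CKS2, a small CDK binding protein, had overlapping groups and a log2 fold change of −0.03 (95% confidence interval −0.28 to 0.22).

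**Figure D3:**
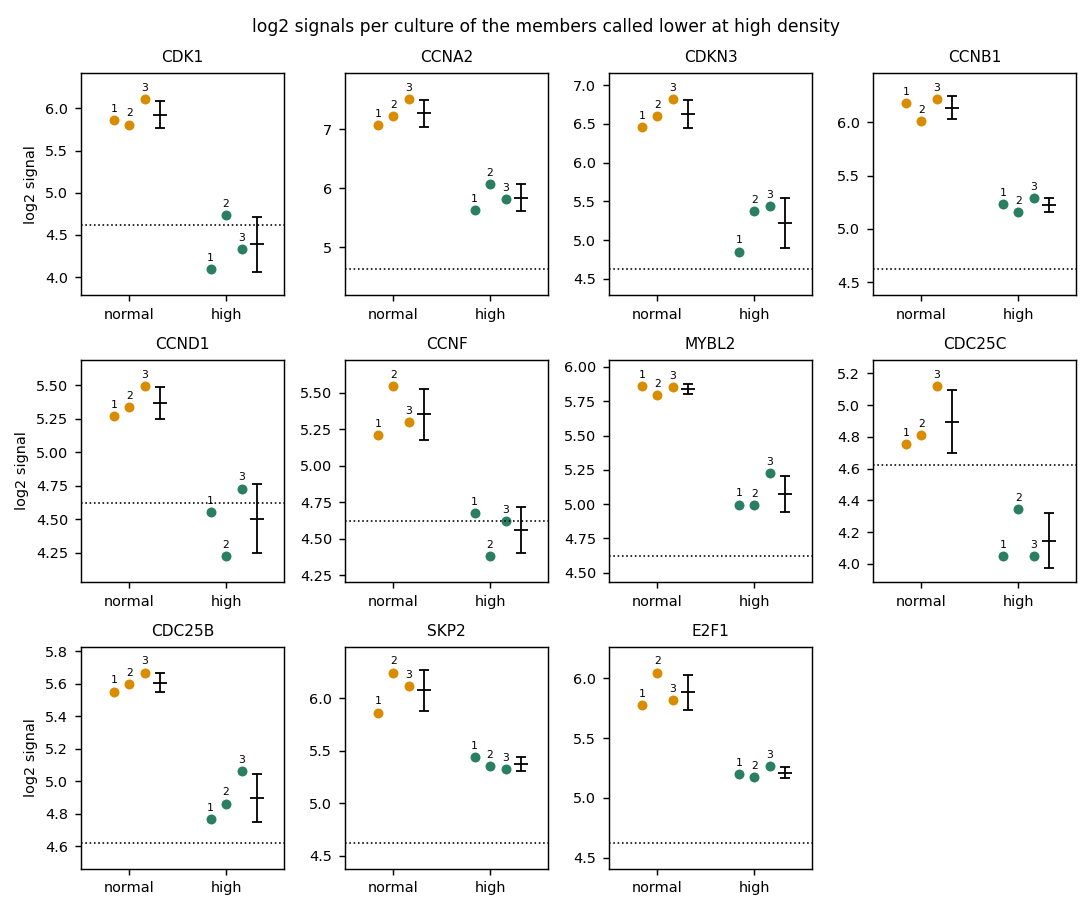
Log2 signals (y axis, each panel with its own scale) of the 11 genes called lower at high density, in the 3 normal and 3 high density cultures (points, numbered by replicate), with the mean and SD in black and the background level of 4.62 as a dotted line. In every panel all high density cultures lie below all normal density cultures, and for CDK1, CCND1, CCNF and CDC25C the high density mean is under the background level.

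Late cell cycle genes are switched on by FOXM1 and by MYBL2 with the MuvB complex, which includes LIN9 and LIN54. MYBL2 (12714668), which is itself an E2F target, had signals of 5.86, 5.80 and 5.85 at normal and of 4.997, 4.996 and 5.23 at high density. The normal density cultures were nearly equal, and the log2 fold change was −0.76 (SE 0.09, FDR 9.80e-04). FOXM1 (12859343) had signals of 5.30, 5.32 and 5.30 and of 5.20, 4.92 and 5.10, lower in all high density cultures. With a log2 fold change of −0.23 (95% confidence interval −0.44 to −0.03) it did not pass the FDR (adjusted p = 0.110). LIN54 had a log2 fold change of −0.22 (adjusted p = 0.0650).

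Genes that are linked to p53 or that belong to no single phase were not called. MDM2 (12868043), the ubiquitin ligase that holds p53 in check and is induced by it, had signals of 8.10, 8.07 and 8.18 at normal and of 7.79, 8.04 and 7.78 at high density. Replicate 2 of the high density cultures lay just under the normal density range, and the log2 fold change was −0.24 (adjusted p = 0.115). CCNG1, a p53 target too, was measured at 10.32, 10.24 and 10.40 and at 9.86, 9.93 and 9.86. Its log2 fold change of −0.43 (SE 0.07, FDR 0.00585) passed the FDR only. CCNG2, a cyclin of resting cells under FOXO control, had a log2 fold change of 0.13 (adjusted p = 0.565), with high density replicate 2 at 6.92 above all other cultures. Without this culture the log2 fold change of CCNG2 was −0.02. CDK7, the kinase that activates other CDKs, had a log2 fold change of −0.38 (adjusted p = 0.0974).

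Across all 46 genes the high density cultures were not alike. The array weights, estimated over all transcript clusters, were 0.29 for high density replicate 2 and between 0.82 and 1.66 for all other arrays. For the median difference from the normal density mean, replicates 1, 2 and 3 at high density gave −0.34, −0.19 and −0.31. Over the E cyclins, CDK2 and CDC25A these medians were −0.47, −0.16 and −0.32, so replicate 2 lay nearest to normal density. Over D cyclins, CDK4, CDK6 and MYC they were −0.24, −0.27 and −0.16. Over the B cyclins, CDK1 and its regulators they were −0.84, −0.74 and −0.55. Among the 11 genes called lower, replicate 3 was nearest to normal density for 6 genes, replicate 2 for 3 and replicate 1 for 2. The SD between cultures was larger at high density for 69.6% of the genes, against 68.4% of all transcript clusters. The median SD of the genes was 0.15 at high and 0.10 at normal density, and that of all transcript clusters 0.13 and 0.08.

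**Figure D4:**
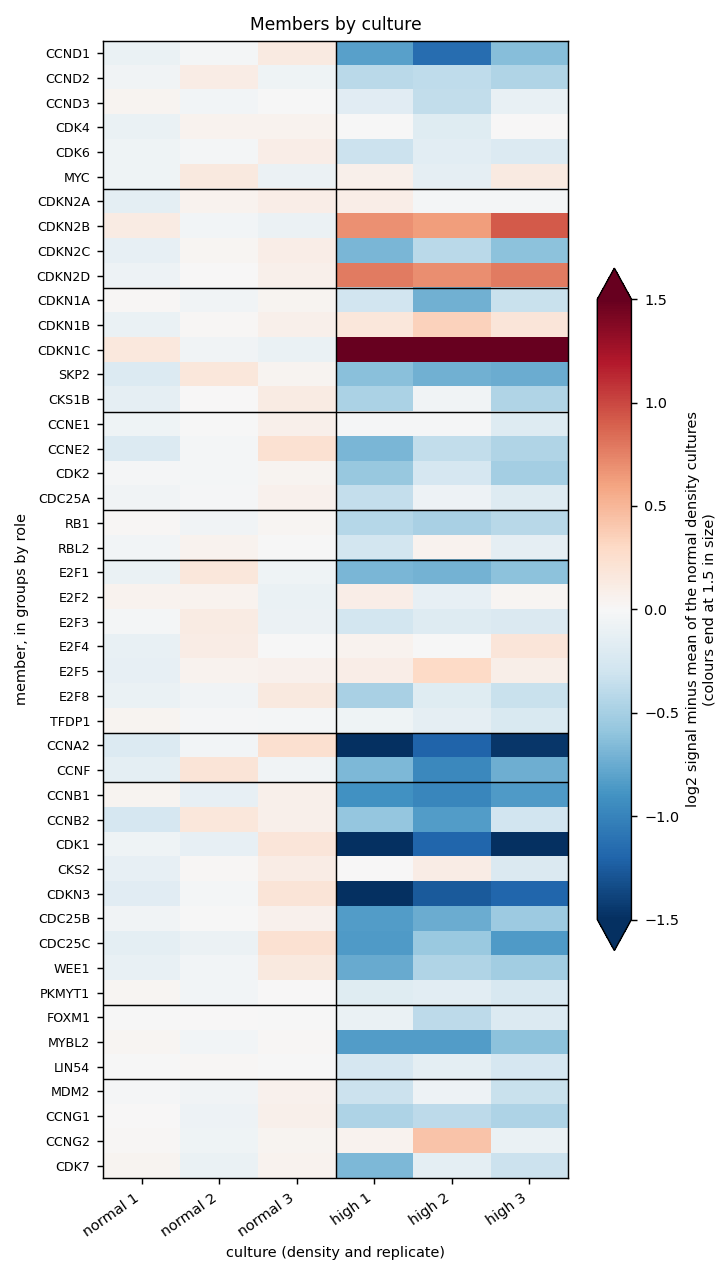
Difference of each log2 signal from the mean of the normal density cultures, for the 46 genes (y axis, in groups by role separated by lines) in each culture (x axis), with blue for lower and red for higher signals and colours that end at 1.5 in size. The 3 high density cultures share the falls of CCNA2, CDK1 and CDKN3 and the rise of CDKN1C, while CDKN1A, CKS1B and CCNG2 differ in replicate 2.

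The signals of the densities did not overlap for 36 of the 46 genes, with 37.3% of all transcript clusters showing no overlap. Lower in all high density cultures were 31 genes, 67.4%, against 19.5% of all transcript clusters. Higher in all of them were 5 genes, 10.9%, against 17.8% of all transcript clusters, namely CDKN1C, CDKN2B, CDKN2D, CDKN1B and E2F5.

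Other genes of the cell cycle were examined in the same way, and their counts stand against 3.51% of all transcript clusters called lower and 3.97% called higher. Of 13 measured mitotic kinases and checkpoint genes, 10 were called lower and none higher, with a median log2 fold change of −0.79. BUB1B and BUB1, checkpoint kinases that watch the attachment of chromosomes, fell by 1.53 and 1.37 on the log2 scale and AURKA, a spindle pole kinase, fell by 1.23. The high density means of BUB1, MASTL and PTTG1, all called lower, were below the background level, and so were both means of NEK2, also called lower. Of 20 S phase genes under E2F control, 7 were called lower and none higher, with a median of −0.48. Among the 7, CDC6 had both means below the background level. RRM2, the regulatory subunit of ribonucleotide reductase, fell by 1.15, MCM5 of the replicative helicase fell by 0.76 and UHRF1, which maintains DNA methylation, fell by 0.75.

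Among 17 genes of the anaphase-promoting complex and its activators, 4 were called lower, with 3.51% of all transcript clusters called lower, and none higher, with a median of −0.17. CDC20, the mitotic activator of the complex, fell by 1.24, its inhibitor FBXO5 fell by 1.14 and its partner enzyme UBE2C fell by 1.08. None of 9 pocket protein and MuvB partners was called, and their median was −0.15.

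The lists of growth arrest and early response genes held calls in the other direction, in which 3.97% of all transcript clusters were called. Of 14 genes of p53 and growth arrest, 4 were called higher and none lower, with a median of 0.20. SESN2, a stress induced inhibitor of mTORC1, rose by 0.91 and GADD45B and GADD45A, which respond to stress and DNA damage, by 0.79 and 0.66. Of 19 genes in the early growth response list, which also holds relatives, partners and antagonists of MYC, 6 were called higher and none lower, with a median of 0.32. MYCN, a relative of MYC, rose by 1.299 from a normal density mean below the background level, MXI1, an antagonist of MYC, by 1.04 and JUNB, a subunit of AP-1, by 0.84.

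**Figure D5:**
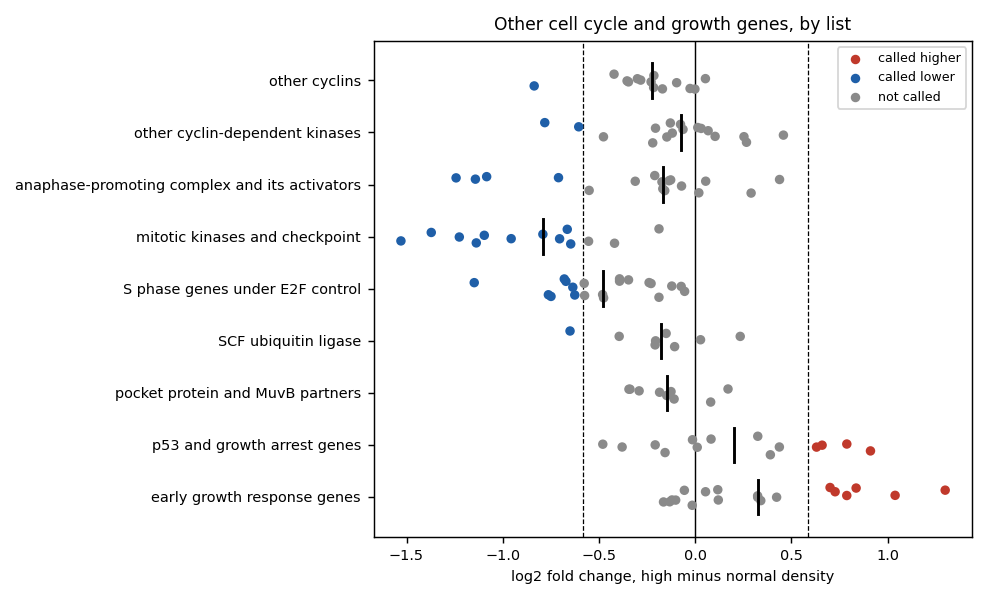
Log2 fold changes, high minus normal density (x axis), of genes in 9 other cell cycle and growth lists (y axis), with 1 point per gene, a black bar at the median of each list and dashed lines at the FC threshold of 1.5. Points of mitotic kinases and checkpoint genes gather at falls, with a median of −0.79. Those of the early growth response list, which also holds relatives of MYC, reach rises of up to 1.299.

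All 14 calls among the 46 genes were kept with any single culture left out. When limma tested for a change beyond the FC of 1.5 itself (treat), 4 of the calls were kept, the rise of CDKN1C and the falls of CDK1, CCNA2 and CDKN3.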

How the data were processed

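The authors hybridized RNA of 6 GC cultures to Affymetrix arrays and processed the scans in Expression Console with RMA, and the deposited table holds log2 signals per transcript cluster, already background corrected and normalized. The genome build is not given in the sources used here. No further normalization was applied. Genes were matched by symbol, and where a gene has several rows the one with the highest mean signal was taken (no gene of the main list has more than 1). The model of limma 3.58.1 (lmFit and eBayes under R 4.3.3) had no covariates, its p-values were adjusted by Benjamini-Hochberg over 26773 transcript clusters, and the thresholds were those of the study's methods. Family members were compared by their log2 ratio within each culture over 27 pairs, with intervals from the pooled SD and a two-sided exact permutation test. The fit was also run on simulated data with independent noise and arrays of equal quality, which cannot show how it performs on these arrays. The alternatives were an equal-variance t-test (the study's methods name an analysis of variance), other variance priors, weights per array and a block for the replicate number. Further ones were other scalings, a filter at the background level, other thresholds, symbol means and leaving out each culture. Named genes are all members of the list, with values per culture for those called and for 20 set members, and up to 3 called genes of each other list. Values per culture are also given for CDKN2C, WEE1, CKS1B and CCNG1, which fall outside this rule, as do LOC512293 and genes named only for signals below background. The members and lists were chosen with earlier results of these data known. Precision is limited by having 3 arrays per density, and fold changes of signals close to background are uncertain. Promoter sequences were not used here. Figures were drawn with matplotlib 3.10.9.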

Additional observations from a re-analysis of the deposited data

How the results depend on the processing

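Over the alternatives the number of genes called higher at high density was 3, except with treat, where it was 1, and the number called lower was between 10 and 14, except with treat, where it was 3. With each culture left out in turn 3 genes were called higher, and between 11 and 15 lower. The replicate number as a block gave 3 and 11 with all calls kept, and it changed no call of a gene. Same-numbered cultures of the densities did not deviate together (Pearson r across transcript clusters of 0.05, −0.05 and −0.04 for numbers 1, 2 and 3), so the numbers were not taken as pairs. The median log2 fold change of the INK4 inhibitors was 0.75 with the filter at the background level, which removes CDKN2A, and 0.38 without it. That of the mitotic gene transcription factors was −0.23, and leaving out single cultures moved it between −0.30 and −0.23.

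Genes with changes near 0 turned in sign, none of them called. After a shift of each array to one median, MYC was at −0.017 and CDKN2A at −0.030, after a second quantile normalization CDKN2A was at −0.046, and under array weights E2F2 was at 0.032. Leaving out each culture, MYC was between −0.029 and 0.11, CDKN2A between −0.063 and 0.061, E2F2 between −0.052 and 0.063, CKS2 between −0.11 and 0.056 and CCNG2 between −0.023 and 0.24. CDK1, CCND1, CCNF, CDC25C and CCNB2 have high density means below the background level, so the sizes of their falls are uncertain.
The search for promoter motifs was not run.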

Other observations

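Cyclins and CDKs that serve transcription or other tasks were measured as well. Their counts of 1 and 2 genes are small, and 3.51% of all transcript clusters were called lower and 3.97% higher. Of 14 other cyclins, 1 was called lower and none higher, with a median log2 fold change of −0.22. This was CCNB3, a B type cyclin known from meiosis, which fell by 0.84 on the log2 scale (SE 0.10, adjusted p = 0.00164 from limma). Of 17 other cyclin-dependent kinases and related genes, 2 were called lower and none higher, with a median of −0.08. CDK14, a kinase linked to WNT signalling, fell by 0.78 and CDK20 fell by 0.61. Among 8 genes of the SCF ubiquitin ligase, FBXW7, the receptor that marks cyclin E and MYC for destruction, was called and fell by 0.65, to a high density mean below the background level.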
